A study of Saccharomyces cerevisiae with 24 samples.

Results

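Peroxisomes are small organelles in which yeast breaks down fatty acids, and they are built by peroxins, the products of the PEX genes. The 30 genes described here are PEX genes and partners of the organelle (INP1, INP2, ANT1, LPX1 and PCS60), chosen by name from those with an annotated probe set in the deposited log2 expression values. They are 30 of the 5449 Saccharomyces cerevisiae genes tested, and each had 1 probe set.

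RNA from steady-state chemostats on minimal medium was hybridised to 24 arrays, 1 sample each, to compare inositol-choline supply and loss of SNF1 under 2 nutrient limitations. The 8 groups of 3 arrays are the snf1 mutant under nitrogen (N) limitation at high and at low inositol-choline, the snf1 mutant under carbon (C) limitation at high and at low inositol-choline, and the reference strain in the same 4 conditions. SNF1 encodes the yeast AMP-activated kinase, which is required for use of carbon sources other than glucose. Neither strain background, dilution rate nor the amounts behind high and low inositol-choline were used here. The labels do not say whether the 3 arrays of a group stem from different cultures; p-values therefore cover array-to-array spread, possibly only technical.

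Matrix proteins of the peroxisome are made in the cytosol, bound by receptors, carried to a docking complex in the membrane and released inside, after which the receptors are ubiquitinated and recycled. Other peroxins insert membrane proteins or set how many peroxisomes a cell has, how large they are and whether the bud inherits them. In budding yeast the organelle is sparse on glucose and proliferates on fatty acids, and Snf1, Adr1, Oaf1 and Pip2 are known regulators of that response.

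The deleted gene SNF1 measured 4.95 to 5.02 (log2) on 12 mutant arrays, below background (5.59), against 7.09 to 8.47 on the 12 reference arrays. For 6 mutant arrays the title says N-limited and the description C-limited. They were taken as N-limited, and MEP2, the ammonium permease gene repressed by good nitrogen sources, lay at 11.77 to 12.25 on them, against 9.01 to 9.94 on the 12 C-limited arrays. A pair of arrays stood apart, replicate 1 of the N-limited mutant and replicate 1 of the N-limited reference strain at high inositol-choline. The difference between 3' and 5' control probe sets (7 genes), a sign of RNA quality, was 2.67 and 2.74 (log2) on them and 1.12 to 1.68 on the other replicates of those groups. On the C-limited arrays at high inositol-choline it was 1.14 to 1.25 in the mutant and 0.92 to 0.98 in the reference strain. It was 0.74 to 0.93 on the 12 arrays at low inositol-choline. Under N limitation at low it was 0.91 to 0.93 in the mutant and 0.77 to 0.88 in the reference strain. In these 2 settings it thus differed between the strains without overlap. Its part in the strain differences and interactions was not tested. The median SD of the 30 genes was 0.201 and 0.187 in those mutant and reference groups and 0.023 to 0.069 in the other 6. Since the fit pools the spread over groups, counts are also given without the pair.

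A gene was called when its adjusted p from limma, by Benjamini-Hochberg over all 5449 genes, was under 0.05. Values after ± are limma's standard errors of a log2 difference (n = 3 arrays per group). Over 12 comparisons of 2 groups there were 360 results for the 30 genes, of which 105 were called, 79 as lower and 26 as higher in the first group. Of all 5449 genes 4.15% to 52.3% were called per comparison. In most of the 12 the share of the 30 genes was below that of all genes. Of the 30 genes 26 were called at least once, while PEX3, PEX19, PEX22 and PEX34 were called in none, and without the pair of arrays only INP1 was called in none. How many of all genes were called at least once is not given here. Comparisons share arrays, so their values stand side by side and are not independent.

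**Figure D1:**
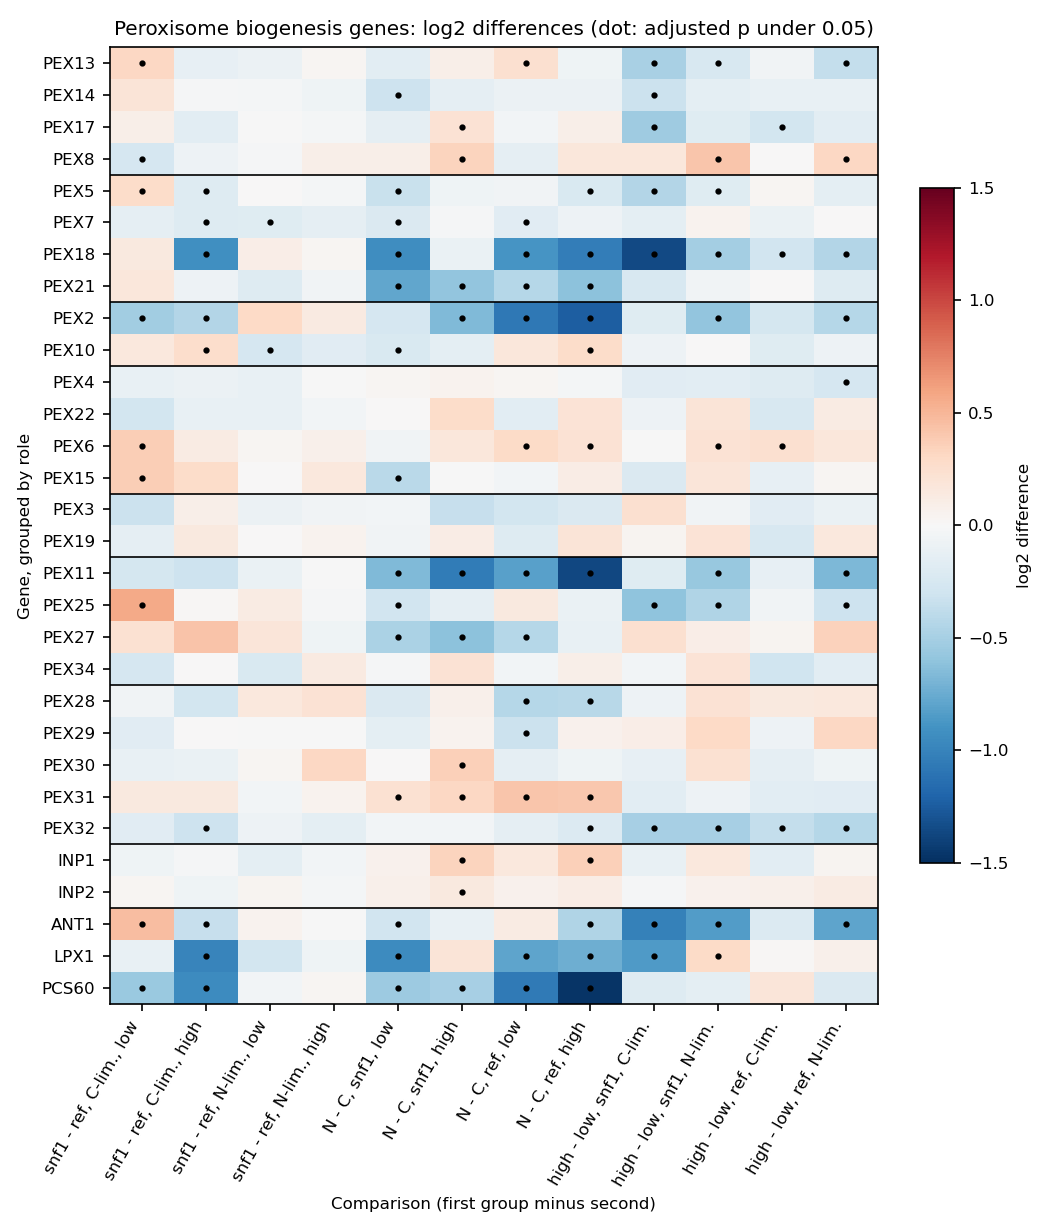
Log2 differences of the 30 genes (rows, grouped by role) in 12 comparisons of 2 groups (columns, first group minus second), with blue for lower and red for higher in the first group. Dots mark an adjusted p under 0.05; the darkest cells are PCS60, PEX11, PEX18 and PEX2 in N against C limitation and PEX18 in the C-limited snf1 mutant at high against low inositol-choline.

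Differences between N and C limitation included the lowest values of the group. In the reference strain at high inositol-choline 10 of the 30 genes fell under N limitation (20.9% of all genes fell) and 4 rose (31.4%), in a comparison that called 52.3% of all genes. At low inositol-choline 10 fell (19.1% of all genes) and 3 rose (25.1%), with 44.3% of all genes called. In the snf1 mutant at high 5 fell (22.1%) and 6 rose (26.5%), with 48.6% of all genes called, and at low 13 fell (15.3%) and 1 rose (15.3%), with 30.6% called. The share of the 30 called was 46.7% in the last of these and at or below that of all genes in the other 3. Without the pair of arrays 16 and 20 of the 30 were called in the reference strain at high and low (66.1% and 65.8% of all genes), and 11 and 19 in the mutant (64.4% and 53.5%). On the 6 arrays of the comparison alone 5 were called in the mutant at high inositol-choline (30.4% of all genes) and 9 in the reference strain at high (29.3%). The medians over the 30 genes were 0.02 and -0.19 in the mutant at high and low inositol-choline and -0.07 and -0.13 in the reference strain, against 0.03, 0.03, 0.06 and 0.04 over all genes.

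Between the snf1 mutant and the reference strain more of the 30 genes were called under C than under N limitation. Under C limitation at high inositol-choline 8 fell in the mutant (14.8% of all genes) and 1 rose (18%), with 32.8% of all genes called. At low 3 fell (14.3%) and 6 rose (20.2%), with 34.4% called. Without the pair of arrays these counts were 16 at high (56.8% of all genes) and 22 at low (58.5%). On the 6 arrays of each comparison alone 17 were called at high (58.5% of all genes) and 21 at low (55.4%). Under N limitation at low inositol-choline PEX7 and PEX10 fell (5.01% of all genes) and none rose (4.72%), with 9.73% called. There 8 were called without the pair of arrays (28.5%), 16 on the 6 arrays alone (45.9% of all genes), and again 16 on them when replicate numbers entered as a block (51.0%). Both PEX7 and PEX10 lost their call without any 1 of the 6 arrays. Under N limitation at high inositol-choline limma called none of the 30, against 4.15% of all genes (1.98% lower and 2.17% higher). There 4 had an unadjusted p under 0.05, and none was called without the pair (9.67% of all genes) or with the block.

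Of the genes called between high and low inositol-choline most were lower at high. In the C-limited mutant 9 fell (13.2% of all genes) and none rose (10.2%), with 23.4% of all genes called. In the N-limited mutant 8 fell (17.7%) and 3 rose (19.5%), with 37.2% called. In the C-limited reference strain 3 fell (6.96%) and 1 rose (7.85%), with 14.8% called, and in the N-limited reference strain 8 fell (14.9%) and 1 rose (16.6%), with 31.5% called. Without the pair of arrays 20 and 16 were called in the C-limited and N-limited mutant (53.3% and 52% of all genes), and 18 and 15 in the C-limited and N-limited reference strain (48.1% and 43.9%). On their 6 arrays alone 5 were called in the N-limited mutant and 2 in the N-limited reference strain (13.5% and 2.57% of all genes). The difference between 3' and 5' control signal was greater at high inositol-choline in every strain and limitation, and its part in these results was not tested.

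**Figure D2:**
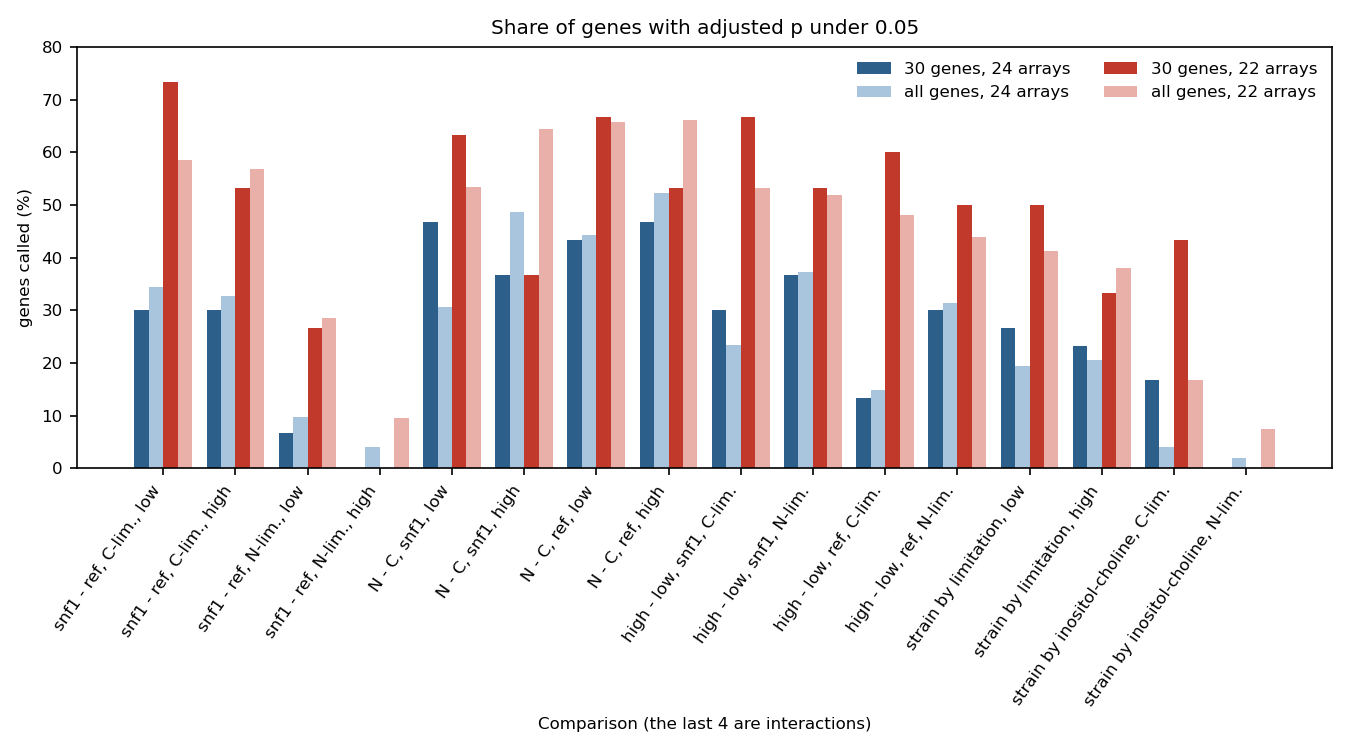
Percent of genes called (adjusted p under 0.05) in each of 12 comparisons and 4 interactions, for the 30 genes and for all 5449 genes, with all 24 arrays and with the 22 left without replicate 1 of both N-limited groups at high inositol-choline. With all 24 arrays the share of the 30 genes is below that of all genes in 10 of the 12 comparisons, and with 22 arrays it is above in 7, for example 73.3% against 58.5% in the C-limited mutant against the reference strain at low inositol-choline. In the strain by inositol-choline interaction under C limitation it is 16.7% against 4.15% with all arrays.

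The differences between the 8 group means of each gene were divided among the factors as a description. The limitation held the largest share of the sum of squares for 12 of the 30 genes, inositol-choline for 11, the strain for 2 (PEX7 and PEX15) and an interaction for the other 5. The median share was 28% for the limitation, 12.8% for inositol-choline and 3.53% for the strain. By these shares the genes differed: the limitation held 91.7% for PEX21, 79.1% for PEX11 and 78.8% for PEX31, whereas inositol-choline held 81.6% for PEX4, 79.9% for ANT1 and for PEX32, and 77.3% for PEX17. A share takes no account of the size of the differences or of the spread between arrays. The group means of PEX4 spanned 0.32 (log2), and it was called in 1 of 12 comparisons. INP1, with 71.6% for the limitation, was called in none without the pair of arrays.

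**Figure D3:**
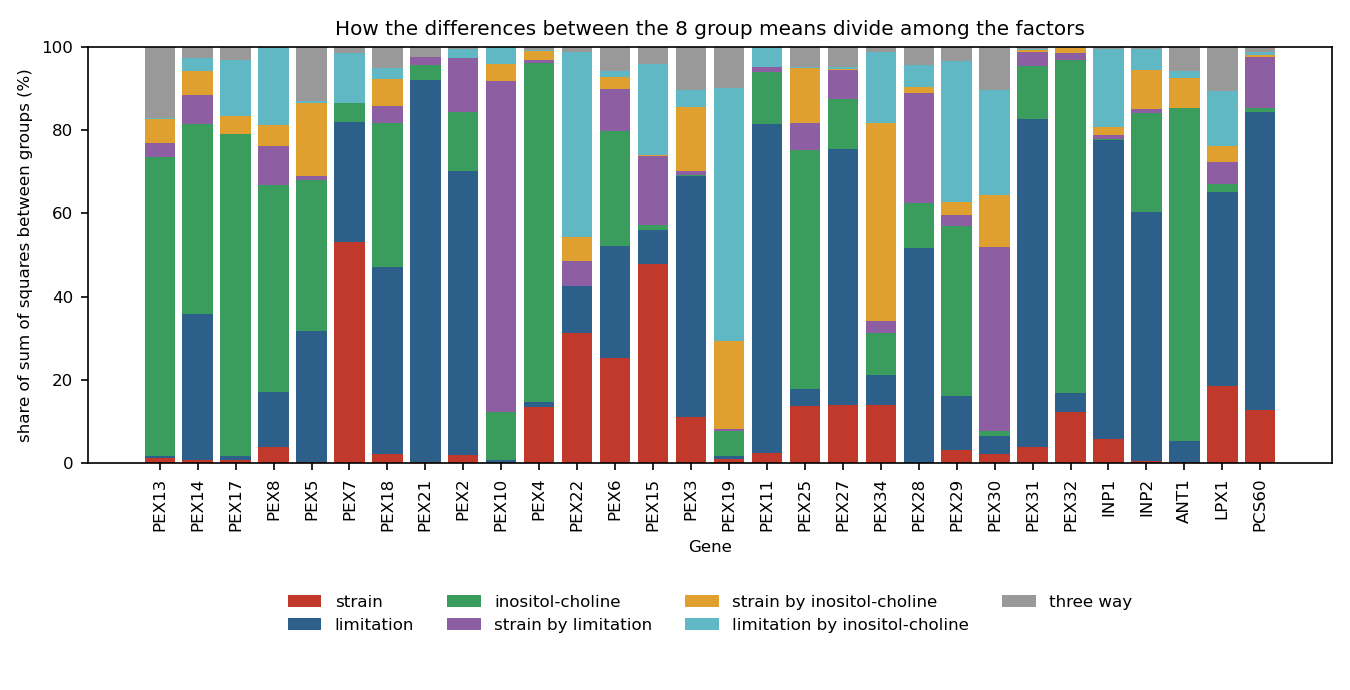
Share of the sum of squares between the 8 group means (percent, stacked to 100) carried by strain, limitation, inositol-choline and their interactions, 1 bar per gene in the order of roles. Bars of PEX21, PEX11, PEX31, PCS60 and INP1 are mostly limitation, those of PEX4, ANT1, PEX32, PEX17 and PEX13 mostly inositol-choline, and PEX10 is mostly the strain by limitation interaction.

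Receptors and co-receptors carry matrix proteins to the membrane. PEX18 (YHR160C) encodes a co-receptor of Pex7 and held the largest response to inositol-choline. It lay at 5.40, 5.38 and 5.41 (log2) on the C-limited mutant arrays at high inositol-choline, against 6.75, 6.81 and 6.69 at low. In the C-limited reference strain it lay at 6.26, 6.35 and 6.33 at high, against 6.75, 6.54 and 6.51 at low. Each high array was below each low array of its strain, and only the mutant at high inositol-choline fell under the background level. The log2 difference was -1.35 ± 0.057 in the mutant (limma adjusted p = 2.02e-12), with the low group at least 2.22-fold higher, and -0.29 ± 0.057 in the reference strain (adjusted p = 0.0032).

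Under N limitation PEX18 was near or below background. On the mutant arrays it lay at 5.23, 5.30 and 5.39 at high and at 5.80, 5.81 and 5.82 at low inositol-choline. On the reference arrays it lay at 5.28, 5.23 and 5.32 at high and at 5.70, 5.70 and 5.75 at low. All 6 high arrays were below the background level, which bounds the folds from there. N against C limitation gave -0.94 ± 0.057 in the mutant and -0.89 ± 0.057 in the reference strain at low inositol-choline (adjusted p = 1.18e-10 and 1.05e-10). At high it gave -1.04 in the reference strain, where C limitation was at least 1.65-fold higher (adjusted p = 9.32e-12), and no fold in the mutant, where both groups were below background. Between mutant and reference strain PEX18 differed by -0.91 ± 0.057 at high inositol-choline under C limitation (adjusted p = 1.27e-10), with the reference strain at least 1.64-fold higher, and by 0.15 at low, which was not called.

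PEX21 (YGR239C), the other co-receptor of Pex7, followed the limitation. In the mutant at low inositol-choline it lay at 7.51, 7.49 and 7.53 under N limitation, against 8.23, 8.30 and 8.35 under C limitation (log2 difference -0.78 ± 0.14, adjusted p = 1.99e-04). The N-limited arrays were below the C-limited ones in all 4 such comparisons, with differences of -0.42 to -0.78. With all arrays none of its responses to inositol-choline or to the deletion was called. Without the pair PEX21 was called in 7 of 12 comparisons in place of 4, so that some of those responses were called then. At high inositol-choline replicate 1 was at 7.04 in the N-limited mutant and 7.17 in the reference strain, with the other replicates at 7.64 to 7.69; without the pair these differences were -0.39 and -0.45. The call in the reference strain at low was lost without 3 of its 6 arrays in turn (adjusted p of 0.0511 to 0.071).

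PEX5 encodes the receptor for the C-terminal targeting signal. It rose in the C-limited mutant at low inositol-choline, at 7.79, 7.71 and 7.69 against 7.42, 7.49 and 7.42 in the reference strain (0.28 ± 0.057, adjusted p = 6.02e-04). At high it fell, at 7.31, 7.31 and 7.24 against 7.48, 7.49 and 7.46 (-0.19 ± 0.057, adjusted p = 0.0133). The groups did not overlap at either level, and the call at high was lost without replicate 3 of the mutant (adjusted p = 0.0601). PEX7, the receptor for the N-terminal signal, differed between mutant and reference strain by -0.13 to -0.19 in all 4 media, and was called under C limitation at high (-0.19) and under N limitation at low inositol-choline (-0.18).

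Docking and import genes were called between high and low inositol-choline mainly in the C-limited mutant and under N limitation, and in the C-limited reference strain PEX17 alone was. In the C-limited mutant PEX13, PEX14 and PEX17, which form the docking complex, fell at high inositol-choline (-0.49, -0.33 and -0.53), although the call of PEX14 was lost without 5 of the 6 arrays in turn (adjusted p of 0.0525 to 0.0994). PEX17 (YNL214W) lay there at 6.06, 6.04 and 5.997 at high, against 6.50, 6.54 and 6.65 at low (adjusted p = 2.19e-05). In the C-limited reference strain it lay at 6.21, 6.14 and 6.24 at high, against 6.43, 6.48 and 6.52 at low (-0.28 ± 0.071, adjusted p = 0.0132), and no array of a high group reached its low group. The call in the reference strain was lost without replicate 2 at high (adjusted p = 0.0765). PEX8, which acts inside the organelle between the docking and ubiquitin ligase complexes, moved the other way under N limitation. It was higher by 0.42 ± 0.082 in the mutant and 0.31 ± 0.082 in the reference strain at high inositol-choline, and by 0.34 and 0.21 without the pair of arrays. The call in the reference strain was lost on its 6 arrays alone (adjusted p = 0.162) and without replicate 1 at high or replicate 3 at low.

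Among the RING ubiquitin ligases that modify the receptors, PEX2 (YJL210W) was lower under N limitation. In the reference strain it lay at 6.81, 7.37 and 7.39 under N limitation at high inositol-choline, against 8.39, 8.43 and 8.45 under C limitation. At low it lay at 7.60, 7.61 and 7.63 under N limitation, against 8.70, 8.74 and 8.63 under C limitation. The groups were far apart at both levels, with log2 differences of -1.23 ± 0.124 and -1.08 ± 0.124 (adjusted p = 9.16e-08 and 5.8e-07), and -1.04 at high without the pair. In the mutant it lay at 6.98, 7.48 and 7.50 under N limitation at high, against 8.03, 7.96 and 7.95 under C limitation (-0.66, adjusted p = 2.11e-04). At low it lay at 7.92, 7.93 and 7.90 under N limitation, against 8.203, 8.11 and 8.18 under C limitation (-0.25, not called with all arrays). The mutant was below the reference strain under C limitation at both levels (-0.44 at high and -0.52 at low, both called). Under N limitation its differences were 0.13 at high and 0.30 at low, and neither was called with all arrays. At low every N-limited mutant array was above every N-limited reference array. Without the pair PEX2 was called in 11 of 12 comparisons in place of 7. The 1 left was mutant against reference strain under N limitation at high, so the rise at low was called then.

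PEX10 encodes another ligase subunit and differed from PEX2 in direction. It was higher in the mutant than in the reference strain under C limitation at high inositol-choline (0.26 ± 0.07, adjusted p = 0.00701) and lower under N limitation at low (-0.25 ± 0.07, adjusted p = 0.0275). The strain by limitation interaction held 79.4% of its variation between groups.

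Receptor recycling needs the ubiquitin-conjugating enzyme Pex4 with its anchor Pex22, and the AAA ATPase subunit Pex6 with its anchor Pex15. PEX6 rose in the C-limited mutant at low inositol-choline, at 7.27, 7.31 and 7.28 against 6.84, 6.97 and 6.94 in the reference strain (0.37 ± 0.074, adjusted p = 6.21e-04). PEX15 rose there by the same 0.37, at 7.90, 7.97 and 8.02 against 7.60, 7.67 and 7.51 (± 0.114, adjusted p = 0.0161). Mutant and reference arrays did not overlap for either gene, and the call of PEX15 was lost without replicate 3 of either strain (adjusted p = 0.0591 and 0.0606). PEX4 was called once, lower at high inositol-choline in the N-limited reference strain (-0.26), which was lost on its 6 arrays alone, and PEX22 never with all arrays.

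Pex3 and Pex19 place proteins in the peroxisomal membrane. Neither PEX3 nor PEX19 was called in any of the 12 comparisons, with differences of -0.34 to 0.25 and -0.24 to 0.21. Replicate 1 of the N-limited groups at high inositol-choline stood apart for both: PEX3 was at 7.13 in the mutant and in the reference strain, against 7.66 to 7.88 on the other 4 arrays, and PEX19 was at 8.83 and 8.77, against 8.08 to 8.38. Without the pair PEX3 was called in 7 of 12 comparisons and PEX19 in 2.

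Of the genes of peroxisome proliferation, PEX11 (YOL147C), which promotes elongation and division of the organelle, followed the limitation. In the mutant it lay at 8.02, 8.85 and 8.83 under N limitation at high inositol-choline, against 9.63, 9.64 and 9.60 under C limitation, and at 9.10, 9.19 and 9.13 against 9.91, 9.75 and 9.75 at low. In the reference strain it lay at 7.93, 8.95 and 8.83 under N limitation at high, against 9.93, 9.94 and 9.94 under C limitation, and at 9.27, 9.24 and 9.23 against 10.09, 10.00 and 10.10 at low. Every N-limited array was below every C-limited array of its strain. The log2 differences were -1.05 and -0.66 in the mutant at high and low, and -1.36 and -0.82 in the reference strain (each ± 0.2, adjusted p of 1.28e-05 to 0.0155), and the call in the mutant at low was lost without replicate 1 under C limitation (adjusted p = 0.0594). Without the pair those at high were -0.78 and -1.04, and PEX11 was called in 10 of 12 comparisons in place of 6. Its falls at high inositol-choline under N limitation, -0.57 in the mutant and -0.67 in the reference strain, were -0.30 and -0.35 without the pair and were not called on their 6 arrays alone.

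PEX25 (YPL112C), a relative of PEX11 that starts proliferation, was lower at high inositol-choline in the C-limited mutant. It lay at 8.01, 7.99 and 8.08 at high, against 8.65, 8.70 and 8.55 at low (-0.60 ± 0.096, adjusted p = 1.4e-04). Levels overlapped in the C-limited reference strain, at 7.99, 7.98 and 8.05 at high against 8.08, 7.94 and 8.17 at low. At low inositol-choline it was higher in the C-limited mutant than in the reference strain by 0.57 ± 0.096 (adjusted p = 1.02e-04), and at high the difference was 0.02. PEX27, the third relative, was lower under N limitation in the 3 comparisons called, with differences of -0.43 to -0.61. At low inositol-choline both calls were lost without any 1 of their 6 arrays (adjusted p of 0.0546 to 0.136), and the call in the mutant at high was lost on its 6 arrays alone (adjusted p = 0.0561). In the reference strain at high inositol-choline it lay at 7.32, 6.65 and 6.51 under N limitation against 7.01, 6.86 and 6.95 under C limitation, so that replicate 1 alone was higher. PEX34, which acts on peroxisome number, was not called in any of the 12 comparisons with all arrays, and was called in 4 without the pair.

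**Figure D4:**
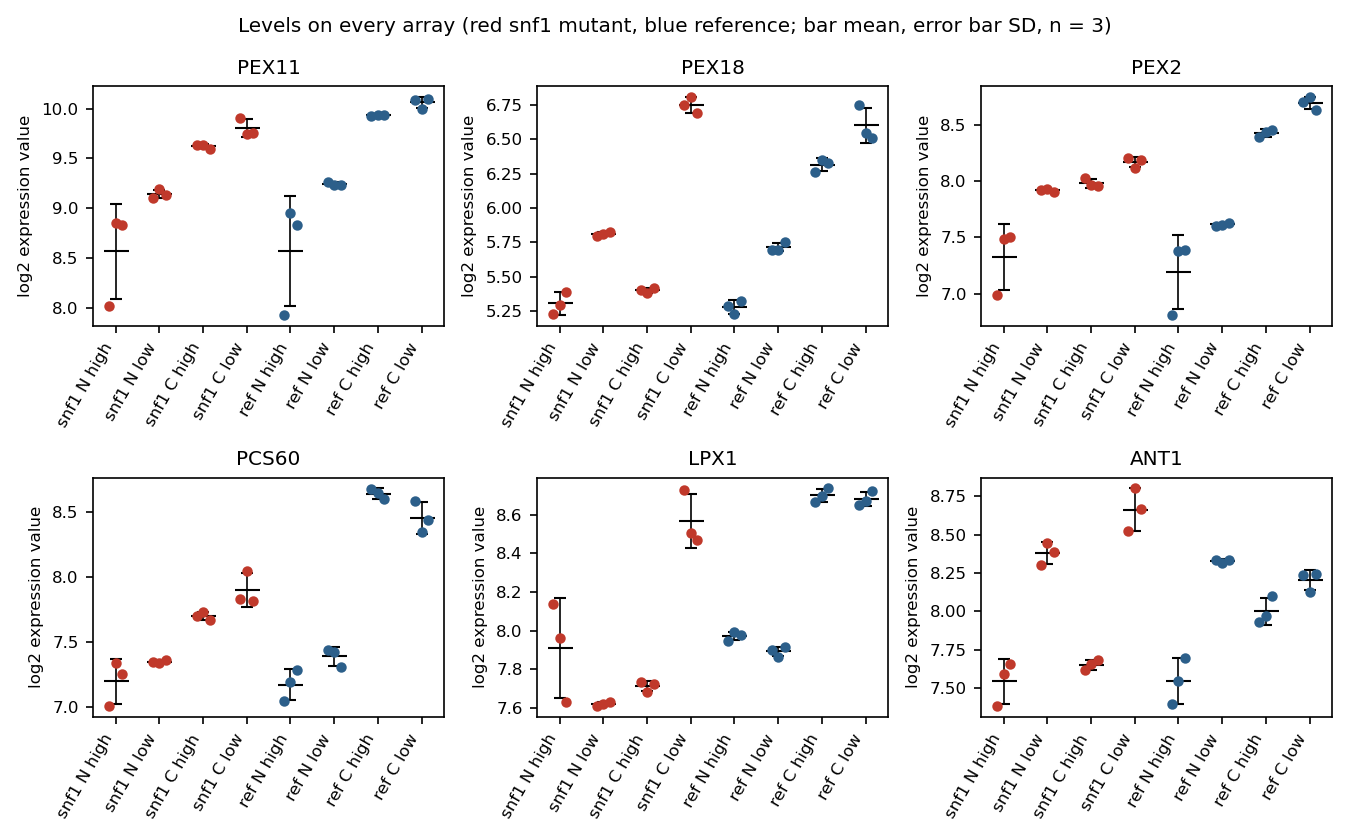
Log2 expression values of 6 genes on all 24 arrays, with the snf1 mutant in red and the reference strain in blue, the group mean as a bar and the SD as the error bar (n = 3). PEX11 and PCS60 are lower in the N-limited groups, PEX18 and LPX1 drop in the C-limited snf1 mutant at high inositol-choline but little or not in the reference strain, and replicate 1 is the lowest N-limited array at high inositol-choline for PEX11 and PEX2.

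Genes that set the size and number of peroxisomes split into opposite patterns. PEX31 was higher under N limitation in all 4 comparisons, by 0.31 and 0.23 in the mutant at high and low inositol-choline and by 0.41 and 0.42 in the reference strain. The call in the mutant at low was lost without any 1 of its 6 arrays, and that at high on its 6 arrays alone. PEX28 was lower under N limitation in the reference strain (-0.41 at high and -0.43 at low, both called). PEX32 fell at high inositol-choline in all 4 comparisons. With all 24 arrays PEX18 was the other gene called in all 4, and without the pair PEX2, PEX11, PEX17, PEX31 and ANT1 were as well. The differences of PEX32 were -0.50 and -0.50 in the C-limited and N-limited mutant and -0.35 and -0.43 in the C-limited and N-limited reference strain (adjusted p of 1.83e-05 to 0.00249). Its call in the N-limited reference strain was lost on those arrays alone (limma adjusted p = 0.056). With the replicate block both N-limited calls were lost for PEX32 (0.0904 in the mutant and 0.212 in the reference strain) and for PEX18 (0.0817 and 0.203). In the C-limited reference strain PEX32 lay at 7.07, 6.93 and 7.16 at high, against 7.41, 7.41 and 7.39 at low. PEX29 and PEX30, which reside in the endoplasmic reticulum, were called once each, PEX29 lower under N limitation in the reference strain at low (-0.32) and PEX30 higher under N limitation in the mutant at high inositol-choline (0.36). The call of PEX29 was lost without 5 of 6 arrays in turn, and that of PEX30 on its 6 arrays alone.

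Inheritance of peroxisomes depends on Inp1, which holds them in the mother cell, and Inp2, which links them to the motor Myo2 for transport to the bud. INP1 was higher under N limitation at high inositol-choline, by 0.34 in the mutant and 0.36 in the reference strain, and was called in neither without the pair of arrays (adjusted p = 0.0627 and 0.0883). INP2 had the narrowest span of group means of the 30 genes, 0.19, and was called once, higher under N limitation in the mutant at high inositol-choline (0.15 ± 0.056), which was lost without 3 of 6 arrays in turn.

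The transporter and matrix enzymes held some of the largest differences. PCS60 (YBR222C) encodes a peroxisomal acyl-CoA synthetase family enzyme. In the reference strain it lay at 7.05, 7.19 and 7.28 under N limitation at high inositol-choline, against 8.68, 8.65 and 8.60 under C limitation, and at 7.44, 7.43 and 7.31 against 8.59, 8.35 and 8.44 at low. In the mutant it lay at 7.01, 7.34 and 7.25 under N limitation at high, against 7.70, 7.73 and 7.67 under C limitation, and at 7.35, 7.34 and 7.37 against 7.83, 8.05 and 7.82 at low. N-limited arrays were below C-limited ones throughout, and the C-limited mutant was below the C-limited reference strain. The falls under N limitation were -1.47 ± 0.083 and -1.07 ± 0.083 in the reference strain at high and low (adjusted p = 1.47e-11 and 2.13e-09), 2.77-fold and 2.09-fold, and -0.50 and -0.55 in the mutant. The mutant was lower under C limitation (-0.94 at high and -0.56 at low, adjusted p = 2.24e-08 and 2.48e-05), and under N limitation its differences were 0.02 and -0.04.

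LPX1 (YOR084W), a peroxisomal lipase gene, was low in 1 of the 4 C-limited groups. It lay at 7.73, 7.68 and 7.73 in the C-limited mutant at high inositol-choline, against 8.73, 8.51 and 8.47 at low (-0.86 ± 0.086, adjusted p = 6.37e-07). The C-limited reference strain had 8.67, 8.70 and 8.74 at high and 8.65, 8.67 and 8.72 at low. The reference levels overlapped, and the mutant differed from the reference strain by -0.99 ± 0.086 at high (1.98-fold lower, adjusted p = 1.87e-08) and by -0.11 at low, which was not called. Under N limitation it lay at 8.14, 7.96 and 7.63 in the mutant and at 7.95, 7.99 and 7.98 in the reference strain at high, and at 7.61, 7.62 and 7.63 in the mutant and at 7.90, 7.87 and 7.92 in the reference strain at low. LPX1 was called lower under N than C limitation in the reference strain at both levels and in the mutant at low. The limitation held 46.5% of its variation between groups, its largest share. In the N-limited mutant it was called higher at high than at low inositol-choline (0.29), which was lost on its 6 arrays alone.

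ANT1 (YPR128C) encodes the adenine nucleotide transporter that brings ATP into the peroxisome for activation of fatty acids, and it was lower at high inositol-choline in 3 of 4 settings. In the C-limited mutant it lay at 7.61, 7.66 and 7.68 at high, against 8.53, 8.80 and 8.67 at low (-1.01 ± 0.082, 2.02-fold lower, adjusted p = 3.03e-08). In the N-limited mutant it lay at 7.38, 7.59 and 7.66 at high, against 8.31, 8.45 and 8.39 at low (-0.84). In the N-limited reference strain it lay at 7.40, 7.54 and 7.70 at high, against 8.34, 8.32 and 8.34 at low (-0.79). High and low arrays were well apart in these 3. In the C-limited reference strain it lay at 7.93, 7.97 and 8.10 at high, against 8.24, 8.13 and 8.24 at low, which did not overlap and was not called with all arrays (-0.20 ± 0.082). ANT1 was also called on the 6 arrays alone under N limitation, with an adjusted p of 0.0113 in the mutant and 0.0168 in the reference strain.

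The interactions test whether 2 such effects differ. The response to inositol-choline under C limitation differed between mutant and reference strain for 5 of the 30 genes, PEX18, LPX1, ANT1, PEX25 and PEX5, all lower in the mutant (2.29% of all genes) and none higher (1.85%), while 4.15% of all genes were called. Without the pair of arrays 13 were called (16.8% of all genes). Under N limitation limma called none of the 30, against 2.07% of all genes (1.03% lower and 1.05% higher), with 0 at an unadjusted p under 0.05 and 0 without the pair (7.4% of all genes). The effect of the deletion differed between limitations for 7 genes at high inositol-choline, 6 as higher under N than C limitation (9.95% of all genes) and 1 as lower (10.6%), with 20.6% of all genes called. At low it differed for 8, 2 as higher (8.74%) and 6 as lower (10.8%), with 19.5% called. Without the pair 10 and 15 were called (38% and 41.2%). Of the 20 interaction calls 10 were lost under at least 1 alternative. PCS60 and PEX2 were called at both levels, with the difference between mutant and reference strain more negative under C limitation. PEX10 was called at both levels in the other direction (-0.40 at low and -0.43 at high). ANT1 was called at both with opposite signs (-0.41 at low and 0.35 at high).

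The genes of peroxisomal beta-oxidation are given beside the biogenesis genes, with no test of the difference between the lists. Under N limitation in the reference strain at high inositol-choline 12 of 13 peroxisomal beta-oxidation genes fell and 1 rose, with a median of -2.30. Of all genes 20.9% fell and 31.4% rose there. At low as many of the 13 did, with a median of -1.82, against 19.1% and 25.1% of all genes. POT1, the thiolase gene, fell by 2.98 and POX1, the acyl-CoA oxidase gene, by 3.14 at high. In the C-limited mutant 12 of the 13 fell and 1 rose relative to the reference strain at high (median -1.24). Of all genes 14.8% fell and 18% rose there. In the same strains at low 10 fell and 1 rose (median -0.59), against 14.3% and 20.2% of all genes. PXA1, a subunit of the fatty acid importer, was lower in the C-limited mutant at high (-1.54) and at low (-1.84). Under N limitation none of the 13 was called between the strains at either level, by limma, against 4.15% of all genes at high and 9.73% at low. POT1 was also lower at high inositol-choline in the C-limited mutant (-1.98) and was at -0.16, not called, in the reference strain.

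**Figure D5:**
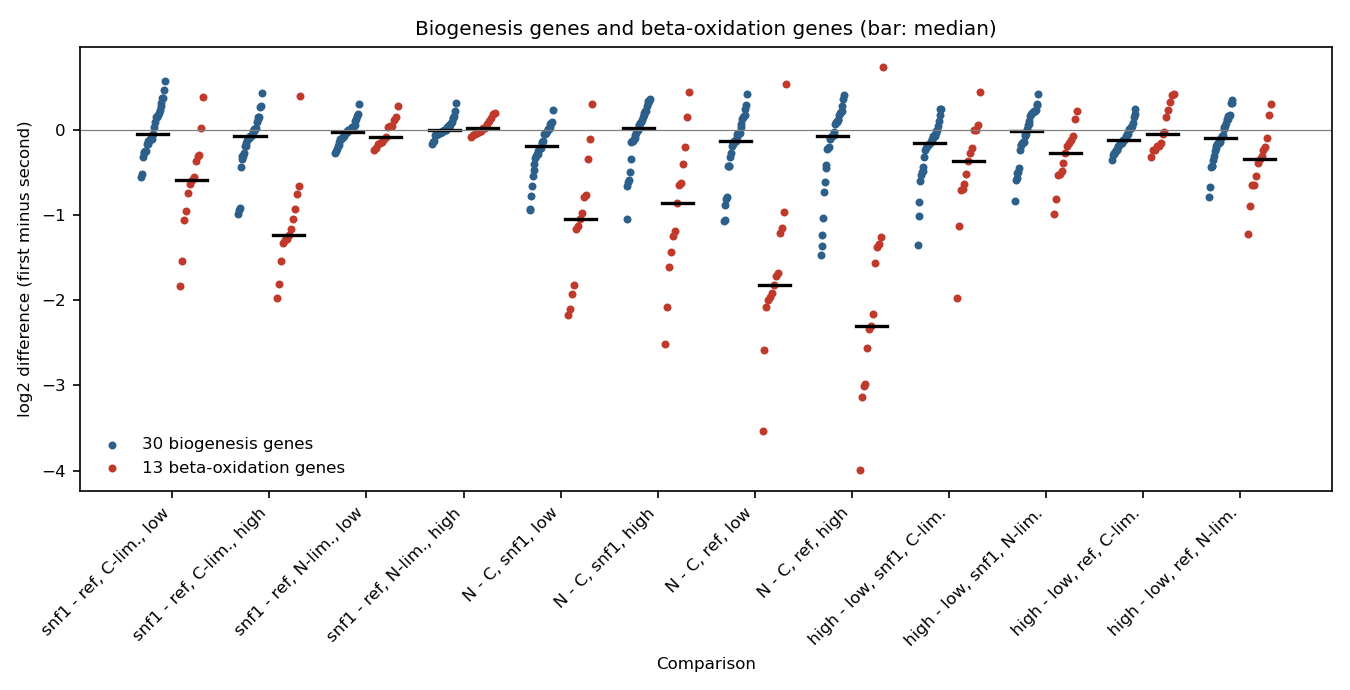
Log2 differences of the 30 biogenesis genes (blue) and of 13 peroxisomal beta-oxidation genes (red) in the 12 comparisons, 1 point per gene, with the median as a bar. Under N against C limitation and in the C-limited snf1 mutant against the reference strain the medians of the beta-oxidation genes lie well below 0, at -0.59 to -2.30, while those of the biogenesis genes lie between -0.19 and 0.02.

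At low inositol-choline 5 of 10 other peroxisomal enzyme genes were lower and 4 higher in the C-limited mutant than in the reference strain, with MLS1, malate synthase, at -1.10 and CIT2, citrate synthase, at 1.95. Of all genes 14.3% were lower and 20.2% higher there. Of 4 regulator genes of the fatty acid response none was called there, with 2 at an unadjusted p under 0.05 by limma, and at high inositol-choline 1 was called, ADR1 at -0.56 ± 0.106 (adjusted p = 3.1e-04). Among all genes 34.4% were called at low and 32.8% at high. ADR1 fell under N limitation in all 4 comparisons, with -0.89 and -1.44 in the mutant at high and low and -1.495 and -1.30 in the reference strain, while OAF1 rose in all 4, by 0.23 to 0.32. Of 6 genes of division and inheritance partners 1 rose in the C-limited mutant at each level, MYO2 by 0.46 at high and 0.42 at low (18% and 20.2% of all genes rose).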

How the data were processed

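PLIER made the deposited log2 values (10928 probe sets, 24 arrays), as the submitters' processing notes name it for the authors. How background and scaling between arrays were handled is not given in the sources used here. Base 2 is an assumption, from values of 4.82 to 13.25. Array medians were 5.93 to 5.998, and no further scaling was applied.

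The annotation gave 7244 probe sets 1 symbol and 1 several, and 3683 were unlisted. By gene identifier 5498 matched S. cerevisiae in RefSeq, and the brightest probe set per gene left 5449 genes. Background is the 95th percentile of the means of 1746 named probe sets without such a gene, 5.59; for bounds it was taken on each array (5.56 to 5.62). A group wholly below it gives an "at least" fold.

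A mean per group was fitted with limma 3.58.1 in R 4.3.3 (lmFit, eBayes, 16 residual degrees of freedom), tested on simulated data. Alternatives were quantile normalization, median centring, dropping dim genes, fitting the compared arrays by themselves, a replicate block, trended robust moderation, and leaving out arrays. Same-numbered arrays deviated together (r over genes above 0.1 in all 3 pairs) in 3 comparisons: mutant and reference strain under N limitation at high (0.901, 0.784 and 0.868) and at low inositol-choline (0.165, 0.313 and 0.405), and N and C limitation in the mutant at low (0.173, 0.461 and 0.392).

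Values of single arrays were given for members called without overlap at a log2 difference of at least 0.5, for some of them in part of the groups only. They were also given for others chosen as examples after their values were seen. The 30 members, the lists and the tests were chosen with earlier results of these data known. Planned counts of promoter motifs were not run, as no sequences were used here. The number of arrays limits the precision.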

Additional observations from a re-analysis of the deposited data

Results flagged for a closer look

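The effects of 11 of the 30 genes differed between groups by an interaction term of limma, called at an adjusted p under 0.05 over all genes. Each of the 4 interactions called 2.07% to 20.6% of all genes. How many of all genes were called in at least 1 of the 4 is not given here, so the 11 cannot be set against it. At high inositol-choline the difference between mutant and reference strain was higher under N than under C limitation for PCS60 (0.97 ± 0.117), PEX18 (a fitted 0.94, with 3 of the 4 groups below background), LPX1 (0.93 ± 0.122), PEX2 (0.57 ± 0.175), PEX28 (0.49 ± 0.161) and ANT1 (0.35 ± 0.116). It was lower for PEX10 (-0.43 ± 0.1). At low inositol-choline it was higher for PEX2 (0.83) and PCS60 (0.52). It was lower for PEX25 (-0.44), ANT1 (-0.41), PEX10 (-0.40), PEX13 (-0.40), PEX6 (-0.34) and PEX5 (-0.27). The call of ANT1 at high was lost under quantile normalization (adjusted p = 0.0528), median centring (0.0506), on the arrays alone (0.155) and without 9 of 12 arrays in turn.

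Under C limitation the response to inositol-choline was lower in the mutant than in the reference strain for PEX18 (a fitted -1.06, whose size is not measured because the C-limited mutant at high was below background), LPX1 (-0.87 ± 0.122), ANT1 (-0.81 ± 0.116), PEX25 (-0.55 ± 0.136) and PEX5 (-0.47 ± 0.08). All 20 calls held without the pair of arrays with the highest 3' minus 5' signal, but 10 were lost under at least 1 other alternative, 9 of them when 1 array was left out. Leaving out arrays in turn lost PEX13 in 8 of 12 fits, PEX25 in 7 for inositol-choline and 5 for the limitation, PEX6 and PEX28 in 6, PEX2 at high and PEX5 at low in 3, and ANT1 at low in 1. On the arrays alone PEX2, PEX28 and PEX10 at high were lost (adjusted p = 0.18, 0.205 and 0.0723). Those kept in every alternative run were PCS60, PEX18 and LPX1 in each of their calls, PEX2 and PEX10 at low, and ANT1 and PEX5 for inositol-choline.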

How the results depend on the processing

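Of the 125 calls of a member in the 12 comparisons and 4 interactions none changed direction under any alternative tried, and all 125 stayed under trended robust moderation and without dim genes. Quantile normalization lost 3, median centring 4, leaving out the pair of arrays 3, the arrays compared alone 28 and the replicate block 37. In the order C-limited at low and high and N-limited at low inositol-choline, the members called in snf1 minus reference were 9, 9 and 2. They were 21, 17 and 16 on the arrays compared alone, the same 21, 17 and 16 with the replicate block, and 22, 16 and 8 without the pair. The share of all genes moved too, from 34.4%, 32.8% and 9.73% to 55.4%, 58.5% and 45.9% on the arrays alone. It was 51.1%, 59.1% and 51% with the block, and 58.5%, 56.8% and 28.5% without the pair. For N minus C at high inositol-choline, mutant and reference, 11 and 14 became 5 and 9 on the arrays alone and 3 and 7 with the block. In the reference strain at low 13 became 20 on the arrays alone and without the pair. Of all genes 48.6% became 30.4% on the arrays alone and 21.2% with the block in the mutant at high. In the reference strain at low 44.3% became 65.8% without the pair. For high minus low under C limitation, mutant and reference, 9 and 4 became 21 and 13 on the arrays alone, 20 and 14 with the block and 20 and 18 without the pair. Of all genes 23.4% and 14.8% became 53.3% and 48.1% without the pair. Under N limitation 11 and 9 became 5 and 2 on the arrays alone and 0 and 0 with the block. The reference count was 15 without the pair (43.9% of all genes, against 31.5% with all arrays). ANT1, called there on the arrays alone, had an adjusted p of 0.0567 in the mutant and 0.112 in the reference strain with the block. For the interaction of strain and limitation at low 8 became 15 under each of these 3, and at high 7 became 3 on the arrays alone. For the interaction of strain and inositol-choline under C limitation 5 became 12 on the arrays alone, 13 with the block and 13 without the pair. Without the pair the share of all genes rose from 19.5% to 41.2% for strain and limitation at low. For strain and inositol-choline under C limitation it rose from 4.15% to 16.8%.

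Leaving out each array in turn gave 7 to 10, 8 to 9, 0 and 0 to 1 for snf1 minus reference (C-limited low and high, N-limited low and high); 8 to 11 and 8 to 14 in the mutant and 8 to 11 and 13 to 15 in the reference strain for N minus C at low and high; 8 to 9 and 7 to 14 in the mutant and 2 to 5 and 7 to 13 in the reference strain for high minus low under C and N limitation; and 4 to 8, 4 to 8, 4 to 6 and 0 to 1 for the interactions. PEX7 and PEX10, called in the mutant under N limitation at low inositol-choline, were thus lost without any 1 array of that comparison. For snf1 minus reference, in the same order, these fits called 27.4% to 33.1%, 27.3% to 28.7%, 6.61% to 7.71% and 3.27% to 7.34% of all genes. For the other comparisons that share is not given here. Without the 6 arrays with disagreeing labels every comparison that could be made kept its count within 1.5 times. Array signal near background limits PEX18.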
